A study of Mus musculus with 2 samples.

Results

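Type 2 dendritic cells (DC) carrying the lectin gene Cd209a were examined among the CD45+ leukocytes of mouse visceral adipose tissue (VAT). The cells came from wild-type C57BL/6 mice aged 15 weeks that had received either normal water (NW) or antibiotics (ABX). According to the study's methods the antibiotics were given in the drinking water, and its general methods describe male mice. CD45+ cells were enriched on magnetic beads, labelled with oligonucleotide-tagged antibodies, captured by the BD Rhapsody system, and sequenced as 1 library per condition. The number of mice behind each library was not found in the sources used here, so NW and ABX are compared as 2 libraries, no test between conditions was possible, and every interval below covers counting error only.

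A cell was counted as a type 2 DC when it held at least 2 Cd209a UMIs (unique molecular identifiers, each standing for 1 captured transcript) and at least 1 UMI of Flt3 or Zbtb46. It also had to lack Xcr1, Clec9a, Cd3e and Cd3d, to hold under 10 UMIs summed over the complement genes C1qa, C1qb and C1qc, and at most 1 UMI each of Fscn1 and Cd79a. These conditions found 323 cells among 25198 that passed the quality limits, 189 of 12474 in NW and 134 of 12724 in ABX. The cells were thus chosen by their own measured UMIs of these 12 genes, whose values in them are given as descriptions only.

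Conventional DC fall into type 1, which carry Xcr1 and Clec9a and present antigen mainly to CD8+ T cells, and type 2, which rely on transcription factors such as Irf4 and present antigen on MHC class II to CD4+ T cells. Both depend on the growth factor receptor Flt3, and the zinc finger factor Zbtb46 marks them apart from macrophages. Cd209a, a mouse relative of human DC-SIGN, and the galactose-type lectins Clec10a and Mgl2 are surface receptors for sugars that are widely used to recognize type 2 DC, although macrophages share the last pair. Monocytes can also acquire Cd209a, and plasmacytoid DC, the type I interferon producers, are set apart by Siglech, Tcf4 and Irf8. In the GRCm38 assembly Cd209a lies at chr8:3743397-3748984 on the minus strand, Flt3 at chr5:147330741-147400489, Zbtb46 at chr2:181387762-181459426 and Clec10a at chr11:70156197-70170834, all annotated as protein-coding genes.

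The median type 2 DC held 6551 gene UMIs in NW and 5556 in ABX, against 5092 and 3845.5 for all cells that passed. The lowest and highest were 1207 and 22391 UMIs in NW and 849 and 15006 in ABX. The 2 libraries shared 196 cell barcodes among the cells that passed, but none between their type 2 DC. Barcodes of 9 type 2 DC also occurred among cells of the other library.

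The fourth marker, Clec10a, was not used to choose the cells and supports a check of the label. It was found in 84.7% of type 2 DC in NW and 80.6% in ABX, against 19.2% and 16.5% of B cells, which should lack it and had median depths of 5218 and 4779 UMIs. With every cell thinned to 2000 UMIs, which left out 15 and 9 type 2 DC and 25 and 72 B cells, the shares were 64.6% and 63.6% of type 2 DC and 6.93% and 6.73% of B cells. Its level was 773 CPM (the UMIs of a gene summed over a group of cells, relative to all gene UMIs of that group scaled to 1e6) in NW and 747 in ABX, compared with 49.5 and 32.9 in type 1 DC. In macrophages it reached 1088 and 1025 CPM, so this lectin separated type 2 DC from other DC and not from macrophages. Flt3 was at 421 and 452 CPM in type 2 DC and at 0 in macrophages, which were defined without Flt3 and Zbtb46. Flt3 and Zbtb46 were both present in 52 NW and 42 ABX cells, Flt3 alone in 120 and 84, and Zbtb46 alone in 17 and 8.

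The Cd209a limit cut through a continuum. Cells just inside it, with 2 UMIs, numbered 29 in NW and 31 in ABX, and held Clec10a at 1023 and 697 CPM and Mgl2 at 633 and 448 CPM. Cells just outside, with 1 UMI and every other condition met, numbered 67 and 42 and held Clec10a at 695 and 817 CPM and Mgl2 at 601 and 711 CPM. The cells outside were shallower, with medians of 2650 and 1737 UMIs against 4846 and 3489 inside. Among cells meeting all other conditions with no Cd209a UMI, 212 and 236 in number, H2-Aa was at 8258 and 5544 CPM against 14880 and 16890 CPM in the cells with 2 UMIs. Leaving out the C1q limit alone would have added 117 NW and 49 ABX cells.

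Markers of other lineages were low in type 2 DC with named exceptions. The 6 T cell markers summed to 48.1 CPM in NW and 40.1 in ABX, the 6 B cell markers to 28.8 and 38.8, the 5 neutrophil markers to 10.4 and 19.4, the 6 fibroblast and adipocyte markers to 12.02 and 27.2, and the 5 endothelial markers to 72.1 and 64.7. The 5 mast cell and basophil markers gave 3 UMIs in NW and none in ABX. The 7 NK cell and innate lymphoid markers summed to 163 and 102 CPM, with 1 NW cell holding 20.6% of them. The 9 monocyte markers, several of which type 2 DC also express, summed to 1022 and 899 CPM. Of the 7 type 1 DC markers, which summed to 469 and 418 CPM, Xcr1 and Clec9a were at 0 by the rule. The 7 mature DC markers summed to 255 and 292 CPM, and Ccr7, the receptor that guides DC to lymph nodes, was found in 1 NW and 3 ABX cells.

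The 12 macrophage markers summed to 1015 CPM in NW and 756 in ABX, and C1q UMIs, between 1 and 9, were present in 87.8% and 79.1% of type 2 DC. The rule caps C1q at 9 UMIs per cell here, and it was capped in the same way in the B and T cells compared. C1qb, a complement subunit made by tissue macrophages, was at 164 CPM in NW type 2 DC beside 172 in B cells and 189 in T cells, and at 106 CPM in ABX beside 113 and 122, whereas macrophages held 4500 and 3971 CPM. The mannose receptor Mrc1, which the rule did not use, was at 238 and 129 CPM, against 35.7 and 29.0 in B cells and 1788 and 1651 in macrophages.

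The 4 plasma cell markers summed to 4974 CPM in NW and 1223 in ABX, and this gap came from 1 cell. A single NW cell with 22391 UMIs, deeper than 99.6% of its library, held 5079 of the 6208 plasma cell marker UMIs of that library, among them 4357 of Igkc and 715 of Jchain, together with 15 Cd209a UMIs. Without the cell holding most UMIs of the gene in each library, Igkc, the antibody kappa constant chain, was at 861 CPM in NW and 1138 in ABX (log2 ratio 0.40), against 4336 and 1149 CPM (-1.92) with all cells. T cells in the same libraries held Igkc at 1351 and 1377 CPM.

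The genes that stood highest in type 2 DC over all other cells were described next, ranked by the library in which the ratio was lower and limited to genes with at least 200 UMIs. Since the same counts chose the cells, the ratios are a description. Klra17, an inhibitory lectin-like receptor of the Ly49 family, led with 102 CPM in NW and 97.0 in ABX, 27.9 and 46.6 times the level in all other cells. It was found in 27.5% and 26.9% of type 2 DC and in 0.728% and 0.402% of B cells. Ddr1, a receptor tyrosine kinase for collagen, followed with 135 and 131 CPM, 19.3 and 18.1 times the other cells. Cd209a itself came next, at 1490 and 1213 CPM.

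Several of the other leading genes encode receptors and signalling proteins. Ms4a4c, a membrane protein of the MS4A family, was at 246 and 270 CPM, against 9.59 and 7.12 in type 1 DC. Mcemp1, another membrane protein, was at 127 and 158 CPM, against 3.81 and 3.56 in type 1 DC but 89.0 in mature DC of NW. Klrd1, the CD94 subunit of NK receptors, reached 541 and 490 CPM, against 81.6 and 84.0 in type 1 DC, and was found in 79.4% and 75.4% of type 2 DC and 3.88% and 4.12% of B cells. Krt80, a type II keratin, was at 431 and 312 CPM, Kmo, an enzyme of the kynurenine branch of tryptophan breakdown, at 338 and 291, and Itgax, the integrin CD11c, at 348 and 301. The adhesion gene L1cam was shared with mature DC, at 172 CPM in NW type 2 DC and 164 in NW mature DC.

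Of the 20 leading genes, 18 exceeded type 1 DC by more than 1.5-fold in both libraries, the exceptions being Flt3 and Skint3. Against mature DC the number was 17, without Mcemp1, L1cam and Flt3, and against B cells 19, without Bcl11a, a transcription factor that B cells also use. All 20 exceeded macrophages and T cells by that margin in both libraries. The 20 genes were ranked by their ratio over all other cells, which include these groups. Counts this high were thus largely set by the ranking. The share of all genes past 1.5-fold against each group is not given here. The counts also include Cd209a and Flt3, which were used to choose the cells. Type 1 DC were held to at most 1 Cd209a UMI and macrophages to no Flt3 UMI. The excess of Cd209a over type 1 DC and of Flt3 over macrophages was therefore set by the rules.

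**Figure D1:**
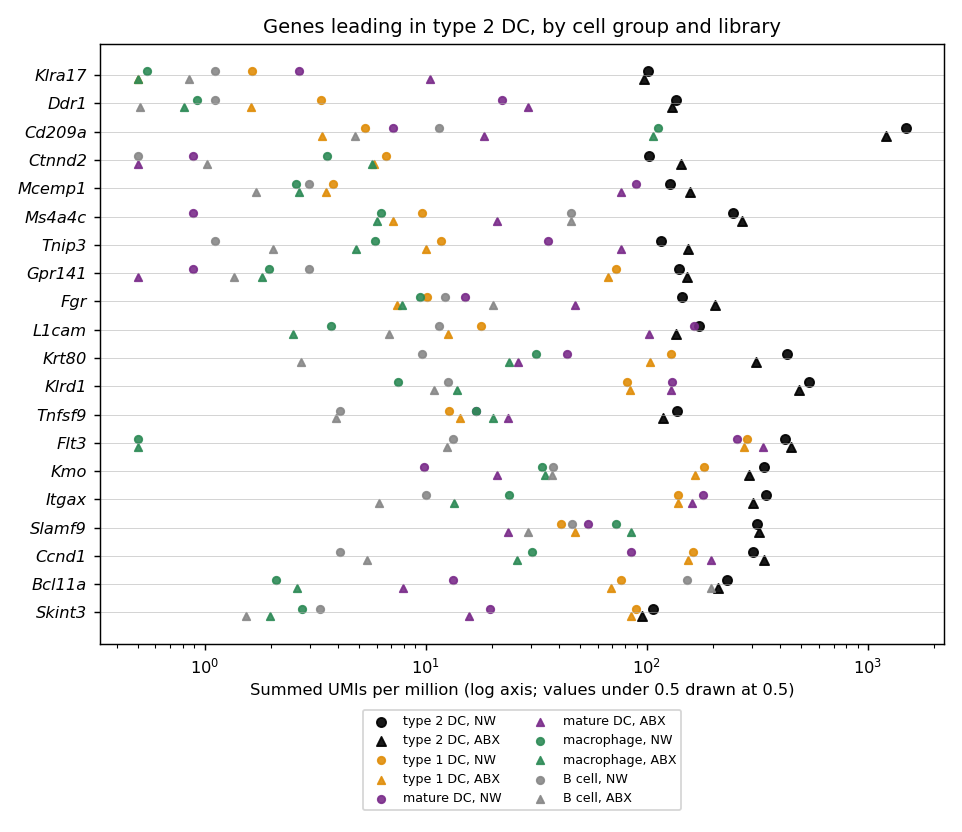
Summed CPM (log axis) of the 20 genes that stood highest in type 2 DC over all other cells, by cell group (colour) and library (circles NW, triangles ABX). The ranking favours type 2 DC (black), which lie furthest right for nearly every gene. Flt3 and Skint3 lie close to type 1 DC and L1cam to mature DC.

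Transcription factors separated the DC types further. Irf8, the master factor of type 1 DC, was at 88.1 CPM in NW type 2 DC and 99.6 in ABX, against 1656 and 1465 in type 1 DC. Id2, a DNA-binding inhibitor, was at 141 and 265 CPM against 1252 and 1261. Irf4, the factor linked with type 2 DC, was at 84.1 and 86.7 CPM against 7.52 and 10.2. Klf4, a factor required by some type 2 DC, was at 359 and 298 CPM against 159 and 157.

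Type 2 DC carried the most MHC class II transcript of the groups compared. H2-Aa, the class II alpha chain, was at 15240 CPM in NW and 17290 in ABX, ahead of type 1 DC at 12710 and 13090, mature DC at 6618 and 7010, and macrophages at 6108 and 7774. Cd74, the invariant chain, followed the same order in NW at 24810, 18370, 9482 and 9163 CPM. In ABX macrophages stood above mature DC for both genes, with Cd74 at 11390 and 8400 CPM. The median type 2 DC held 98 H2-Aa UMIs in NW and 97 in ABX.

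Receptors for trafficking and adhesion were also high. Ccr2, the chemokine receptor that draws cells from blood, was at 1316 and 1026 CPM, against 932 and 763 in type 1 DC and 140 and 120 in macrophages. Itgam, the integrin CD11b, was at 505 and 546 CPM against 40.5 and 29.3 in type 1 DC, and Sirpa, a receptor used to sort type 2 DC, at 164 and 142 against 8.50 and 7.61. Ffar2, a receptor for short-chain fatty acids of the kind gut bacteria make, was at 56.9 and 69.9 CPM from 71 and 54 UMIs, against 1.09 and 1.13 in type 1 DC and 1.00 and 1.72 in macrophages. It was found in 14.3% and 14.2% of type 2 DC and in 1.21% and 1.41% of B cells.

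The antibody tags gave a readout of surface protein that the rule did not use. The CD44 antibody, against the hyaluronan receptor, had a median of 184 UMIs per cell in NW type 2 DC (quartiles 122 and 277) and 195.5 in ABX (114 and 303), below the 237 and 218 of type 1 DC and above the 59 and 54 of macrophages. CD25, the interleukin-2 receptor alpha chain, had medians of 8 and 5, against 21 and 12 in mature DC. Most other groups were near type 2 DC, with 8 and 6 in type 1 DC, 7 and 5 in B cells and 10 and 9 in macrophages. T cells had 12 and 8. Between the libraries the medians of type 2 DC differed by less than the spread between cells for both antibodies.

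**Figure D2:**
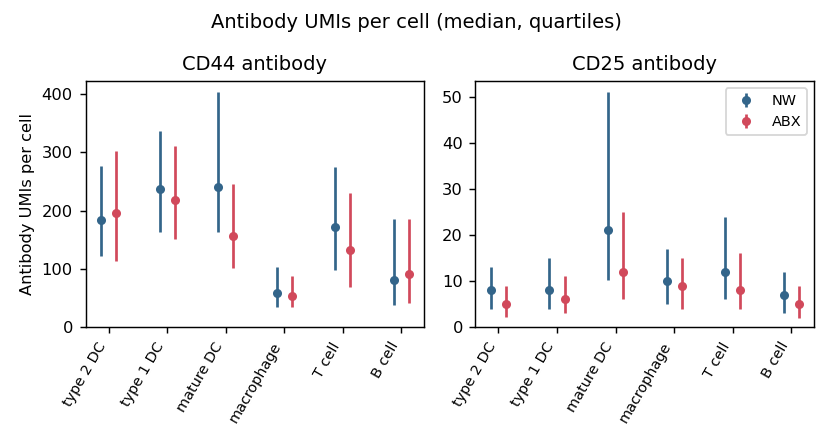
Antibody UMIs per cell for CD44 and CD25 in 6 cell groups, with NW in blue and ABX in red; points are medians and lines run from the lower to the upper quartile. For CD44 type 2 DC (184 in NW, 195.5 in ABX) lie well above macrophages (59 and 54), and for CD25 they lie below mature DC (21 and 12).

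Type 2 DC were not uniform. Cells with 2 to 3, 4 to 9 and 10 or more Cd209a UMIs had median depths of 5288, 5336 and 7579 UMIs in NW. In ABX these depths were 3528, 5871.5 and 7246.5. At these unequal depths, Cd209a ranged from 2 to 62 UMIs per cell in NW (median 7) and from 2 to 31 in ABX (median 5). Mgl2, by contrast, was present in 58.7% of cells in NW (exact Clopper-Pearson 95% interval 51.4% to 65.8%) and 46.3% in ABX (37.6% to 55.1%), against 16.8% and 9.15% of B cells. Its level was 1011 and 690 CPM, and 1 cell held 15.2% of its UMIs in NW and 16.7% in ABX.

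Cells with and without Mgl2 differed in a few genes in both libraries. Cd7, an immunoglobulin-family receptor known from lymphocytes and some DC, was at 417 CPM in cells without Mgl2 and 132 in cells with it in NW, and at 276 and 29.9 CPM in ABX. This split overlaps the one by Siglech described below. Siglech was found in 7.69% of NW cells without Mgl2 and 5.41% with it, and in 12.5% and 3.23% in ABX. Klra17 was at 166 and 62.1 CPM in NW and 119 and 73.4 in ABX. Klrd1 was at 718 and 432 CPM in NW and 565 and 408 in ABX. H2-Aa differed little, at 15080 and 15340 CPM in NW and 16150 and 18560 in ABX. The median depths of the cells without and with Mgl2 were close, at 6205 and 6782 UMIs in NW and 5556 and 5542 in ABX. Ccl17, a chemokine that attracts T cells through Ccr4, was at 14.7 CPM without and 175 with Mgl2 in NW, and at 7.41 and 416 in ABX, where 1 cell held 81.1% of the UMIs.

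A minority carried Siglech, the defining lectin of plasmacytoid DC: 12 cells in NW, or 6.35% (3.32% to 10.8%), and 11 in ABX, or 8.21% (4.17% to 14.2%). B cells held it in 0.971% and 0.704%. Its level over all type 2 DC, 70.5 and 59.5 CPM, was near that of macrophages, 62.1 and 78.8. This split was chosen after the values were seen. In those cells Tcf4, the master factor of plasmacytoid DC, was at 775 CPM in NW and 1221 in ABX, against 280 and 227 in the cells without Siglech. Irf8 was at 786 and 689 CPM against 36.2 and 29.0, Ly6c2, a surface protein of monocytes and plasmacytoid DC, at 798 and 1258 against 34.4 and 26.1, and Cd7 at 751 and 943 against 202 and 65.2. The pattern leaned on few cells, since 1 cell held 47.1% of the Irf8 UMIs of these 12 cells and 82.5% of those of the 11. For Tcf4 these shares were 23.9% and 26.7%.

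Leading and marker genes of type 2 DC went both ways with Siglech. Mgl2 was at 566 CPM in NW and 181 in ABX, against 1044 and 750 without Siglech, and Clec10a at 358 and 496 against 804 and 776. Mcemp1 was at 34.7 and 48.4 CPM against 134 and 171, and H2-Aa at 9491 and 12620 against 15670 and 17850. Krt80, Ms4a4c and Tnip3 were also lower with Siglech in both libraries, while Klra17, at 208 CPM against 93.8 in NW and 169 against 88.4 in ABX, Kmo, at 566 against 321 and 339 against 285, and Ddr1, Itgax, Flt3 and Bcl11a were higher in both. Cd209a was at 1514 CPM against 1488 in NW and at 859 against 1256 in ABX. The 6 plasmacytoid DC markers together reached 145 and 177 CPM in all type 2 DC, and 1 cell held 38.7% of these UMIs in NW and 59.1% in ABX.

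**Figure D3:**
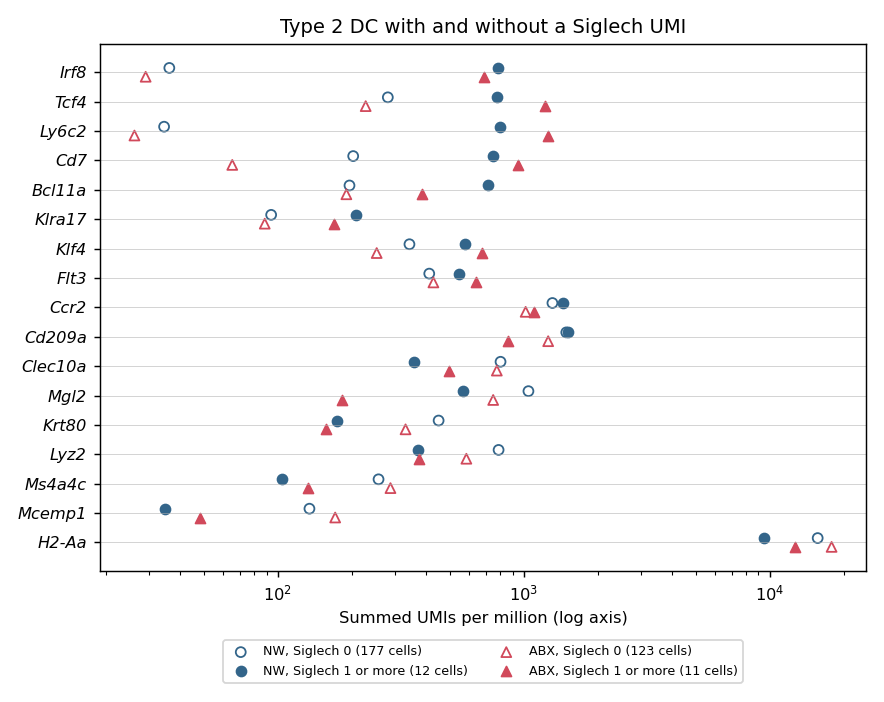
Summed CPM (log axis) of 17 genes in type 2 DC without a Siglech UMI (open symbols) and with at least 1 (filled symbols), circles for NW and triangles for ABX. In both libraries Irf8, Tcf4, Ly6c2 and Cd7 lie further right in the cells with Siglech, and Clec10a, Mgl2, Mcemp1 and H2-Aa further left.

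At least 3 UMIs over 8 cell cycle genes were held by 16 cells in each library. These were 8.47% of NW (4.92% to 13.4%) and 11.9% of ABX (6.98% to 18.7%). The log10 ratio of these shares was 0.149, with a counting interval from -0.136 to 0.435 that includes 0. A difference between conditions was not tested. The 5 cells with most of these UMIs carried 57.9% of them in NW and 69.3% in ABX.

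The first question put by the design was whether type 2 DC were as frequent with antibiotics as with normal water. They made up 1.52% of cells in NW (1.31% to 1.75%) and 1.05% in ABX (0.883% to 1.25%), a log10 ratio of -0.158 (-0.254 to -0.0624), or 0.695 times the NW share. Type 1 DC made up 7.95% in NW and 5.66% in ABX (-0.148, -0.188 to -0.108), and mature DC 1.11% and 0.417% (-0.424, -0.561 to -0.287). B cells, at 3.30% in NW and 7.82% in ABX, took a larger part of the ABX library, and since shares sum to a whole, fewer type 2 DC and more of other cells cannot be told apart. As a share of the type 1, type 2 and mature DC together, type 2 DC were at 14.3% of 1319 cells in NW (12.5% to 16.3%) and 14.8% of 907 in ABX (12.5% to 17.3%), a log10 ratio of 0.0133 (-0.0756 to 0.102). DC that met none of these rules are not in that denominator.

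Depth moved with that comparison, since ABX cells were shallower and the rule asks for 2 UMIs of Cd209a. With every cell thinned to 2000 UMIs before the rule, 97 of 11133 NW cells and 74 of 10569 ABX cells remained type 2 DC, a log10 ratio of -0.0950 with an interval from -0.226 to 0.0359 that includes 0. The same deep cells without thinning gave -0.121 (-0.220 to -0.0219). With Clec10a in place of Cd209a as the gate, 227 and 164 cells were found, and the log10 ratio was -0.150 (-0.236 to -0.0632).

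The second question was which genes differed within type 2 DC. Among the 1676 genes that reached 200 UMIs in both libraries together, 18 were at least 1.5-fold higher in ABX, which is 1.07%, and 24 were at least 1.5-fold lower, which is 1.43%. The median log2 ratio over these genes was -0.02. When the cell with most UMIs of each gene was left out of each library, 13 of the 18 and 19 of the 24 still passed 1.5-fold. The 10 genes named in each direction below exclude those used by the rule and those with over 20% of their UMIs in 1 cell of the library where they were higher.

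Of the 10 genes higher in ABX, Mki67, a protein of dividing nuclei, was at 96.1 CPM in NW and 182 in ABX (log2 ratio 0.92, interval 0.56 to 1.29), with 1 cell holding 25% of its UMIs in NW and 18.4% in ABX. Ccnd2, cyclin D2, which drives entry into the cycle, was at 194 and 330 CPM (0.77), and Hmgb2, a chromatin protein of dividing cells, at 284 and 437 (0.62). Id2 was at 141 and 265 CPM (0.91, 0.61 to 1.21) and is known as a repressor of E-protein factors. The remaining 6 were Hnrnph2, an RNA-binding protein at 82.5 and 137 CPM (0.73), the peptidase Nrd1 at 88.1 and 141 (0.68), the ubiquitin ligase adaptor Klhl6 at 84.9 and 132 (0.64), Wdr89 at 196 and 303 (0.63), the transcription factor Mef2c at 128 and 198 (0.63) and the nucleic acid binding protein Pura at 91.3 and 141 (0.63).

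The same genes varied between the other cell groups of these libraries. Mki67 was lower in ABX in B cells (-0.52) and macrophages (-0.53), at 0.09 in T cells, at 0.44 in type 1 DC and at 4.93 in mature DC, the last from 3 and 31 UMIs. Ccnd2 was at 0.83 in macrophages, 0.56 in mature DC, 0.42 in B cells, 0.23 in type 1 DC and 0.18 in T cells. Hmgb2 was at 0.82 in mature DC and between -1.01 and 0.24 in the other 4 groups. Id2 stood at 0.01 in type 1 DC and 0.75 in macrophages. Hnrnph2 and Nrd1 lay between -0.13 and 0.08 in the 5 other groups. Wdr89 was between 0.38 and 0.54 in those groups, beside 0.63 in type 2 DC.

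Among the genes lower in ABX, Retnla, a secreted protein of alternatively activated macrophages, was at 414 CPM in NW and 198 in ABX (log2 ratio -1.07, -1.34 to -0.80). Its level in type 2 DC was that of lymphocytes, with 412 and 209 CPM in B cells and 480 and 264 in T cells, and macrophages held 10810 and 6536 CPM. Cd36, a scavenger receptor for fatty acids, was at 194 and 109 CPM (-0.84), beside 213 and 171 in B cells. Mrc1, at 238 and 129 CPM (-0.88, -1.22 to -0.55), was higher than in B cells, as given earlier. The macrophage marker sum given earlier, 1015 and 756 CPM, moved with them and includes the C1q genes that the rule caps. The part of macrophage transcripts in Retnla, Cd36 and Mrc1 was not tested.

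Among the other genes lower in ABX, Nr4a1, an orphan nuclear receptor induced within minutes of stimulation, was at 516 and 320 CPM (-0.69, -0.91 to -0.48), Fosb, a subunit of the AP-1 factor, at 185 and 110 (-0.75), Nfkbid, a nuclear inhibitor of NF-kB, at 127 and 64.7 (-0.98), and Dnajb1, a heat shock co-chaperone, at 128 and 77.6 (-0.72). Nr4a1 was also lower in ABX in type 1 DC (-0.99), T cells (-1.59) and B cells (-0.81), and Fosb in type 1 DC (-0.51), T cells (-0.76) and B cells (-0.79). Atp2a2, a calcium pump of the endoplasmic reticulum, was at 132 and 68.6 CPM (-0.95), Pdia3, a protein folding enzyme, at 307 and 188 (-0.71), and Xbp1, a factor of the unfolded protein response, at 215 and 132 (-0.70). Pdia3 was also lower in ABX in every other group, from -0.16 in B cells to -0.84 in mature DC. In T cells Nfkbid was at -0.71 and Xbp1 at -0.54, and in the remaining groups they lay between -0.24 and 0.04 and between -0.31 and 0.01. Atp2a2 ran from -0.37 in T cells to 0.88 in mature DC, and Dnajb1 from -0.37 in T cells to -0.03 in B cells. The NW cell rich in antibody transcripts bore on Xbp1, which was at -0.51 and under 1.5-fold without it, while Pdia3 stayed at -0.69 and Atp2a2 at -0.96.

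**Figure D4:**
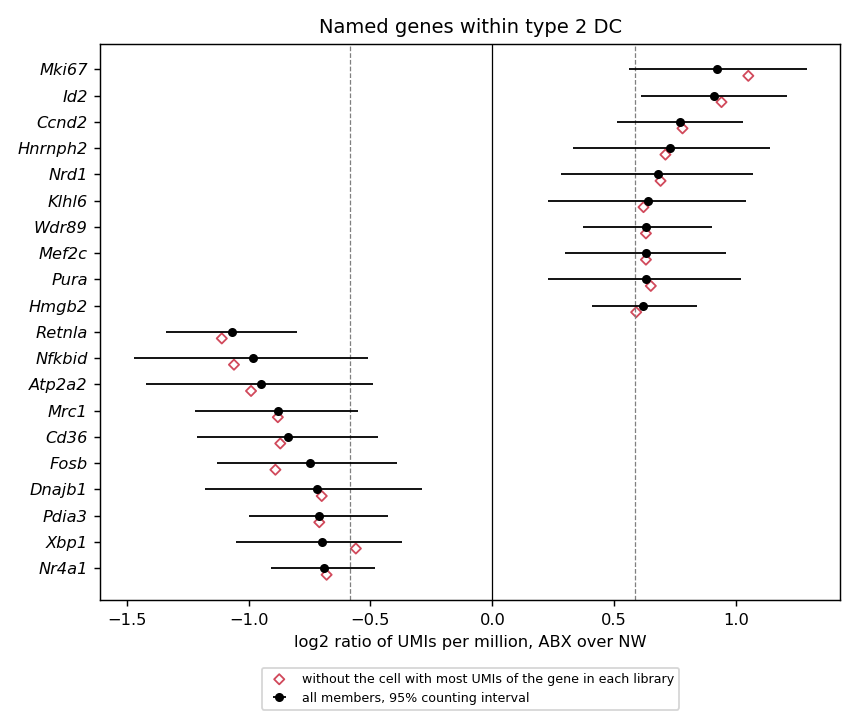
Log2 ratio of CPM, ABX over NW, of the 20 named genes within type 2 DC, with 95% counting intervals (black) and the ratio without the cell holding most UMIs of the gene in each library (open red diamonds). Dashed lines mark 1.5-fold; the genes run from Mki67 at 0.92 to Retnla at -1.07, and Xbp1 is the one whose diamond falls inside the lines.

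Gene lists were then counted over genes with at least 50 UMIs, of which 221 of 5521, 4.0%, were at least 1.5-fold higher in ABX and 312, 5.65%, at least 1.5-fold lower, with a median log2 ratio of -0.02. The lists describe the members and were not tested.

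Antigen presentation genes lay close together. None of the 13 genes of the MHC class II pathway passed 1.5-fold, and their median log2 ratio was 0.08. All 13 held at least 200 UMIs, and of all genes that deep only 1.07% were 1.5-fold higher and 1.43% lower. The absence of class II genes past 1.5-fold is thus near the share over all such genes. H2-Ab1, the class II beta chain, was at 15980 and 16790 CPM (0.07), Ciita, the class II transactivator, at 468 and 552 (0.24), and Ctss, the protease that trims the invariant chain, at 1950 and 1842 (-0.08). Of 4 co-stimulatory ligands none passed, with Icosl, the ligand of the T cell receptor ICOS, at 224 and 304 CPM (0.44) and Tnfsf9, the ligand of 4-1BB, at 137 and 119 (-0.20).

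Of 21 surface receptors of type 2 DC, none was 1.5-fold higher and 2 were lower. Cd24a, a glycosylated surface protein, was at 118 CPM in NW and 40.1 in ABX (-1.55) from 147 and 31 UMIs, and Cd7 at 240 and 159 (-0.60). Mgl2 was at -0.55 and Cd209a at -0.30 (-0.41 to -0.18), both under 1.5-fold, and Clec10a at -0.05. Of 8 genes used to divide type 2 DC into the A and B subsets, 1 was lower, the tetraspanin Cd81 at 38.5 and 24.6 CPM (-0.65), and the list's median was -0.34. Of 21 DC transcription factors 1 was higher, Id2, and none was lower, with a median of -0.07, and without each gene's leading cell Irf8 also passed 1.5-fold in the lower direction.

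The cell cycle list stood furthest from the median of all genes. Of 11 genes 8 were at least 1.5-fold higher in ABX and none was lower, with a median of 0.86. Top2a, the topoisomerase of dividing cells, was at 107 and 219 CPM (1.04), Ube2c, a ubiquitin enzyme of mitosis, at 35.3 and 94.4 (1.42) and Ccna2, cyclin A2, at 27.2 and 71.2 (1.39). Without each gene's leading cell in either library 6 of the 11 remained past 1.5-fold, and the median was 0.59. Without the cells holding 3 or more cell cycle UMIs, the median was 0.33, but its members did not all move the same way. In the remaining cells Stmn1, at 34.3 CPM in NW and 15.5 in ABX, and Tubb5, at 314 and 285, were lower in ABX. Mki67 was at 7.41 and 9.30 CPM there, from only 8 and 6 UMIs. The values of the other members in those cells are not given here. The same list had a median of 0.43 in mature DC, where it rested on 2 genes, 0.12 in type 1 DC, 0.03 in T cells, -0.47 in macrophages and -0.94 in B cells.

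The immediate early and heat shock list stood on the other side. Of 20 genes 5 were lower, Fosb, Egr1, Dusp1, Nr4a1 and Dnajb1, and none higher, with a median of -0.42. Egr1, a zinc finger factor of early responses, was at 385 and 243 CPM (-0.66), and Dusp1, a phosphatase that ends MAP kinase signalling, at 340 and 211 (-0.69). Fos was at 1046 and 798 CPM (-0.39) and Hspa1b, an inducible chaperone, at 2357 and 1920 (-0.30). Their median was also below 0 in type 1 DC (-0.32), T cells (-0.41), B cells (-0.26), mature DC (-0.17) and macrophages (-0.13). Within type 2 DC the cytokine list, with only 4 genes, had a lower median of -0.47.

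**Figure D5:**
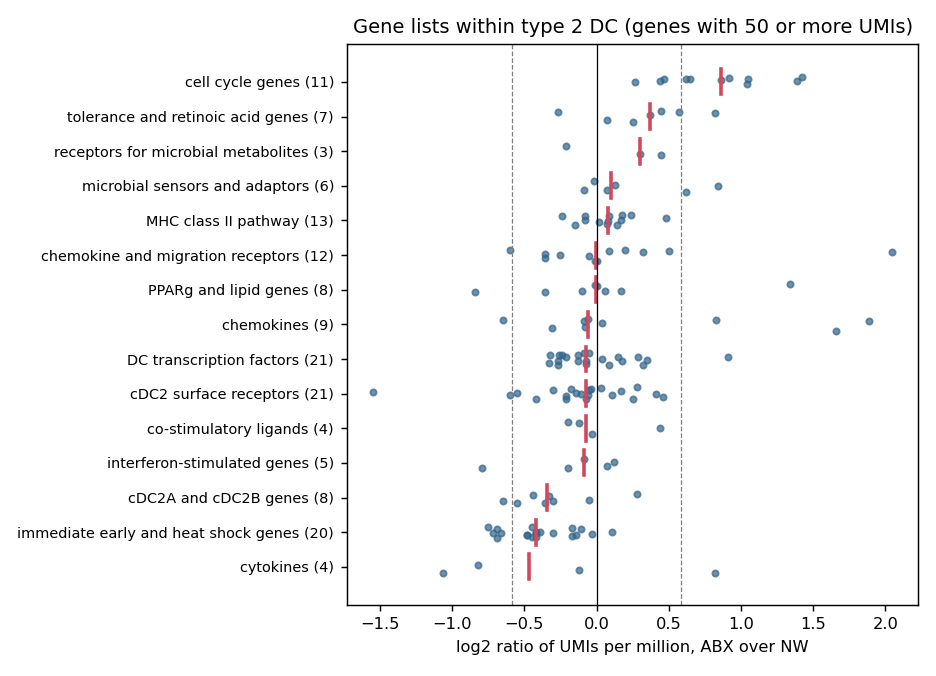
Log2 ratio of CPM, ABX over NW, within type 2 DC for each gene of 15 lists (blue points; number of genes with at least 50 UMIs in parentheses), with the median of the list as a red bar and 1.5-fold as dashed lines. Cell cycle genes lie furthest to the right (median 0.86) and MHC class II genes close to 0 (0.08). Immediate early and heat shock genes (-0.42) and the 4 cytokines (-0.47) lie to the left.

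Cytokines were sparse, with 4 of 20 listed genes at 50 UMIs or more, whereas the chemokines included abundant members. Of 4 cytokines, Tgfb1, transforming growth factor beta, was higher at 35.3 and 62.1 CPM (0.82) from 44 and 48 UMIs, and the inflammatory cytokines Il1b, at 137 and 77.6 CPM (-0.82), and Tnf, at 72.9 and 34.9 (-1.06), were lower. Of 9 chemokines, Ccl5, Ccl17 and Ccl22 were higher and Cxcl2, a neutrophil attractant, was lower. A single ABX cell held 79.5% of the Ccl17 UMIs and 82.9% of the Ccl22 UMIs of that library. Without the leading cell of either library Ccl17 was at 84.8 CPM in NW and 42.0 in ABX (-1.01), against 114 and 202 (0.83) with all cells, and Ccl22 turned from 1.66 to -0.58. Ccl3 and Ccl4, inflammatory chemokines, went from 0.04 to -0.85 and from -0.06 to -0.73, and Cxcl2 from -0.65 to -0.36, so that 1 of the 9 was then higher (Ccl5) and 3 were lower (Ccl3, Ccl4 and Ccl17). Ccl5, a T cell attractant, was at 48.1 and 179 CPM (1.89) and was at 1.63 without its leading cells. The most abundant members, Ccl9 and Ccl6, attractants of myeloid cells, were at 1002 and 947 CPM (-0.08) and 625 and 503 (-0.31).

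Of 12 chemokine and migration receptors, Ccr9, a gut-homing receptor also carried by plasmacytoid DC, was higher at 11.2 and 46.6 CPM (2.05) from 14 and 36 UMIs, of which 1 cell held 42.9% and 33.3%, and S1pr4, a lipid receptor, lower (-0.60). Ccr2 was at -0.36. Of 6 microbial sensors, Tlr2, the receptor for bacterial lipoproteins, was higher at 28.8 and 51.8 CPM (0.84) from 36 and 40 UMIs, as was Cd14 (0.62), while the adaptor Myd88 was at 0.07 and Nlrp3 at -0.02. Of 3 receptors for microbial metabolites none passed 1.5-fold, with Ffar2 at 0.30, the orphan receptor Gpr35 at -0.21 and the retinoic acid receptor Rara at 0.45. Pparg, a nuclear receptor of lipid metabolism, had 9 UMIs in NW and 4 in ABX, too few for a comparison.

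Of 8 lipid genes Fabp4, the adipocyte fatty acid binding protein, was higher at 16.8 and 42.7 CPM (1.34) from 21 and 33 UMIs, and Cd36 lower. Fabp4 in B cells was at 18.6 and 52.3 CPM, close to its level in type 2 DC. Of 7 genes of tolerance and retinoic acid 1 was higher, Tgfb1, with Aldh1a2, the enzyme that makes retinoic acid, at 28.0 and 23.3 CPM (-0.27). Of 5 interferon-stimulated genes 1 was lower, Oasl2 (-0.79), and Ifitm3, the most abundant, was at 1338 and 1254 CPM (-0.09).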

How the data were processed

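The deposited files hold UMI counts per gene and per antibody for each cell barcode. Per the file headers the authors made them with version 1.8 of the BD Rhapsody WTA Analysis Pipeline, which collapses reads into molecules and corrects UMI errors, and the submitters' processing notes name mm10 (GRCm38), R 3.6.0 and Seurat 3.0.1. Cells with at least 500 gene UMIs, 200 genes and at most 25% mitochondrial UMIs were kept; no doublet caller was run. The members and the gene lists were chosen with earlier results of these data known. UMIs were summed over the cells of a group and library, divided by all their gene UMIs and given as CPM. Ratios carry exact conditional Poisson intervals and shares exact Clopper-Pearson intervals at 95%, and log10 ratios of shares a normal counting interval. Named were the 4 markers, the 10 genes most above and the 10 most below 1 in the ABX over NW ratio (at least 200 UMIs, at least 1.5-fold, none used by the rule or with over 20% of UMIs in 1 cell), the 20 leading genes, and up to 5 genes per list. Other groups came from gene rules: type 1 DC (at least 2 UMIs of Xcr1 and Clec9a, with Flt3 or Zbtb46), mature DC (at least 2 of Fscn1, with Ccr7 or Ccl22), macrophages (at least 10 of C1q, without Flt3 and Zbtb46), B cells (at least 2 of Cd79a, with Cd79b) and T cells (at least 2 of Cd3e and Cd3d). Type 1 DC also held at most 1 Cd209a UMI. Alternatives varied the rule, filters, scaling and depth; 6 were added after seeing the data. Of 10 antibody columns, CD3 and NK-1.1 are not named in the study's methods and were not described. One gene and its antibody are not reported here. Gene positions are those of GENCODE M21. The intervals of both kinds of ratio were tested on simulated data. All simulated cells of a library shared the same profile, so that check covers counting error and not variation between cells. Python 3.11.15, numpy 2.4.6 and scipy 1.17.1 were used.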

Additional observations from a re-analysis of the deposited data

Results flagged for a closer look

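Barcodes removed by the quality limits were not part of any comparison, yet a few met every gene condition for type 2 DC: 6 of 5188 removed barcodes in NW (0.116%, exact 95% interval 0.0425% to 0.252%) and 8 of 5061 in ABX (0.158%, 0.0683% to 0.311%). Their median mitochondrial share was 30.2% in NW and 30.1% in ABX, just past the limit of 25%.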

How the results depend on the processing

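The share of type 2 DC among all cells stayed lower in ABX under the 14 other settings with that denominator, with log10 ratios from -0.200 to -0.0950. Its direction turned with the type 1, type 2 and mature DC together as the denominator (0.0133). The counts of 18 higher and 24 lower genes depended on how many genes entered: 221 and 312 with at least 50 UMIs per gene, 2925 and 3021 with no filter, and 2 and 6 after thinning to 2000 UMIs, where 392 genes remained. Higher and lower genes numbered 10 and 30 of 2024 with at least 1 Cd209a UMI, 12 and 22 of 1463 with at least 3, 11 and 21 of 1388 with C1q under 5, and 9 and 25 of 1110 without cells holding genes of another lineage. They were 8 and 21 of 1430 without cells with 3 or more cell cycle UMIs and 7 and 17 of 885 without cells holding B cell or plasma cell genes, both settings chosen after seeing the data. Clec10a turned from -0.05 to 0.03 with at least 3 Cd209a UMIs, 0.05 without cells holding genes of another lineage, 0.10 without B cell or plasma cell genes, and 0.01 in cells with Mgl2. The 20 named genes kept their direction in 15 alternatives each, but only Id2, Pdia3 and Retnla also stayed past 1.5-fold in all 15. Klhl6 and Xbp1 did so in 9, Pura in 10, and Hmgb2, Fosb and Mki67 in 11, with Pura and Hmgb2 as low as 0.16 and Nr4a1 reaching -0.28. Mki67 ranged from 0.18 to 1.88, and the median of the cell cycle list from 0.33 to 1.60. Causes were not tested. No paired analysis was possible because each condition has 1 library and the labels carry no replicate numbers. Depth limits genes such as Pparg, with 13 UMIs in all.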
